A study of Rattus norvegicus with 20 samples.

Results

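The livers of rats given triphenyl phosphate (TPHP), an organophosphate added to plastics and foams to slow burning, were compared at the 2 highest doses of a dose series. All 3 arrays labelled 881 mg/kg were set against all 3 labelled 440 mg/kg, which is 6 of the 20 arrays of the study, and the 5 arrays of vehicle-treated rats took no part in the test. The comparison asks how the livers of rats given 881 mg/kg differed from those of other rats given 440 mg/kg. The rats were male Harlan Sprague Dawley animals that received the compound in corn oil by gavage on 4 consecutive days, and liver was taken on day 5. The 2 doses correspond to 1.35 and 2.7 mmol/kg. The sample titles give the lower of the 2 doses as 440 mg/kg and the protocol text gives it as 441 mg/kg; the title's figure is used here. The labels assign 3 rats to each dose group and describe pieces of the left liver lobe as the source of the RNA. Biotin-labelled RNA was hybridised to Affymetrix arrays, with 1 array a sample. The other dosed groups, 55, 110 and 220 mg/kg with 3 arrays each, entered the fit only to estimate the spread between rats of a group, and they and the vehicle arrays are given below as levels. A single strain, sex, vehicle and time point were studied, so the values describe male liver a day after the last dose.

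Several regulatory systems of the liver bear on such an exposure. The nuclear receptors CAR and PXR bind foreign compounds and switch on cytochromes P450, conjugating enzymes and efflux pumps. NRF2 is a transcription factor that is held down by KEAP1 in unstressed cells, and it drives glutathione synthesis, quinone reduction and NADPH supply when electrophiles or oxidants modify KEAP1. Hepatocytes of adult rats are mostly resting and can re-enter the cell cycle, when E2F factors raise DNA replication genes at entry and a later wave of mitotic genes follows in G2 and M phase. The liver clock, fasting and feeding signals and growth hormone set the daily and sex-specific levels of many metabolic genes, which therefore also depend on the hour and the nutritional state at which tissue is taken.

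The tissue carried the liver label well: the mean level over the 18 measured hepatocyte markers, such as Alb (albumin) and Ttr (transthyretin), was 13.87 to 13.97 on the log2 scale at 440 mg/kg and 13.73 to 13.94 at 881 mg/kg. Array 881 mg/kg replicate 2 stood apart from the others. Its Gapdh control probe sets read 5.24 log2 units higher at the 3′ than at the 5′ end of the transcript, against 0.81 to 1.64 on the other 19 arrays, and its beta-actin probe sets 3.47 against 1.67 to 2.72. A large 3′ excess is the usual sign of degraded or incompletely copied RNA. The hexokinase control probe sets went the other way, 1.47 on that array against 1.54 to 2.05. Its median correlation with the other arrays was 0.983, where those of the other 19 lay between 0.990 and 0.994. Results below include this array. Calls are also given without it, and so are many of the differences that it moved.

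Between 881 and 440 mg/kg, 1 of 14217 genes passed the test in the upward direction (0.00703%) and 0 in the downward direction (0%), by limma over the 15 dosed arrays with Benjamini-Hochberg adjustment at 0.05. At an unadjusted p under 0.05, 1331 genes differed, and the median standard error of a difference was 0.115 log2 units. The arrays of the 2 groups did not overlap for 1079 genes that were higher at 881 mg/kg (7.59%) and 791 that were lower (5.56%). Without 881 mg/kg replicate 2 the same model called 41 genes higher (0.288%) and 13 lower (0.0914%), 54 in all (0.38%). With the replicate number as a block it called 13 higher (0.0914%) and 8 lower (0.0563%). Of these, 8 genes were called both ways: Osgin1, Nfil3, Lpin1, Tubb2a, Rarb, Egln3, Il6r and Vasn. Apart from Osgin1 and the genes of a fixed list, the genes named below were chosen after their values were seen, from the gene lists, the calls of these 2 further fits and the largest differences between groups that did not overlap.

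Osgin1, an oxidative stress induced growth inhibitor whose gene responds to NRF2, was the gene that rose. It measured 10.28, 10.73 and 10.90 at 440 mg/kg and 11.61, 12.15 and 12.19 at 881 mg/kg, so the lowest array of the higher dose lay above the highest of the lower dose. The difference was 1.35 ± 0.18 (SE) log2 units, a 2.55-fold rise (adjusted p = 0.0253, limma), and it was 1.33, 1.42 and 1.29 between arrays of the same replicate number. The group that stood away from the rest of the series was 440 mg/kg: vehicle arrays lay between 11.58 and 12.12, and the means at 55, 110 and 220 mg/kg were 11.84, 11.49 and 11.83. Osgin1 in the rats given 881 mg/kg thus lay near the level seen without the compound. The call rests on individual arrays, since adjusted p was 0.0785 without 881 mg/kg replicate 3, 0.155 without 440 mg/kg replicate 1 and 0.183 when the 6 arrays were fitted alone.

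**Figure D1:**
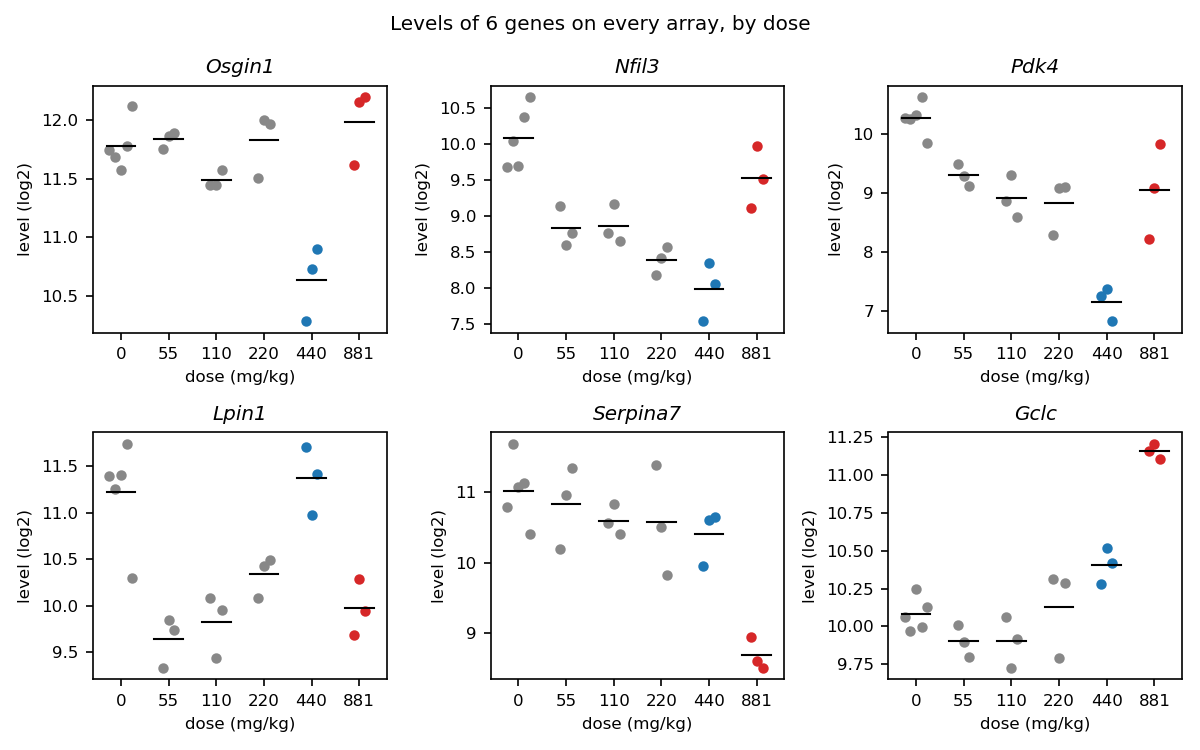
Level (log2) of 6 genes on each of the 20 arrays against dose in mg/kg, with vehicle at 0; points are arrays, blue for 440 and red for 881 mg/kg, and the bar is the mean of the group. Osgin1 and Pdk4 are low and Lpin1 is high at 440 mg/kg beside the doses on either side, whereas Serpina7 and Gclc at 881 mg/kg lie outside the range of all lower doses.

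The NRF2 targets were mostly higher at the higher dose. Of 29 measured, 10 had all 3 arrays at 881 mg/kg above all 3 at 440 mg/kg and 0 lay entirely below, against 7.59% and 5.56% of all genes. Their median difference was 0.37 log2 units, beside 0.01 over all genes (-0.0030 without 881 mg/kg replicate 2), and 24 of the 29 differences were positive. The median member lay 0.11, 0.51 and 0.26 above the 440 mg/kg mean on replicates 1, 2 and 3, so the array with the 3′ excess was the highest, and without it the median was 0.25. Whether that array's RNA quality bears on the list was not tested.

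Within the list, Gclc, the catalytic subunit of the enzyme that limits glutathione synthesis, separated the groups most evenly. It measured 10.28, 10.52 and 10.42 at 440 mg/kg and 11.16, 11.21 and 11.10 at 881 mg/kg. The difference of 0.75 ± 0.13 (SE), 1.68-fold, gave an adjusted p of 0.0687 over the dosed arrays, 0.0522 without 881 mg/kg replicate 2 and 0.0469 with the replicate block. All 3 arrays at 881 mg/kg lay above every other array of the series, vehicle included (9.97 to 10.24). A second, dimmer probe set for Gclc differed by 0.34 ± 0.31, and by 0.83 without replicate 2. Gclm, the modifier subunit of the same enzyme, measured 11.38, 11.64 and 11.68 against 11.91, 12.37 and 11.90 (adjusted p = 0.351). Hmox1, the heme oxygenase that opens the heme ring, measured 10.34, 9.85 and 10.13 against 10.43, 11.29 and 10.76 (adjusted p = 0.265). For Gclm and Hmox1 the groups did not overlap, and replicate 2 was the highest of the 3 arrays. Without that array the difference was 0.34 in place of 0.49 for Gclm and 0.49 in place of 0.72 for Hmox1.

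The remaining NRF2 targets whose groups did not overlap had differences between 0.40 and 0.69 log2 units with adjusted p-values of 0.174 to 0.729. They were Txnrd1 (thioredoxin reductase), Srxn1 (sulfiredoxin), Me1 (malic enzyme, a source of NADPH), Slc7a11 (the cystine importer), Abcc4 (an efflux pump) and Gsta4 (a glutathione transferase for lipid aldehydes). A second, dimmer Txnrd1 probe set differed by 0.055 ± 0.22, and by 0.40 without replicate 2. The other, dimmer Srxn1 probe sets differed by -0.07 and 0.19, and a second Me1 probe set by 0.89 ± 0.27. Nqo1, the quinone reductase often used to read this pathway, overlapped between the doses, with 9.44, 9.64 and 9.85 against 10.00, 10.34 and 9.75. The glutathione transferases Gstp1 (difference 0.66 ± 0.32, adjusted p = 0.552) and Gsta3 (0.51 ± 0.54, adjusted p = 0.851) and the conjugate efflux pump Abcc3 (0.37 ± 0.41, adjusted p = 0.858) overlapped as well. Without replicate 2 the differences were smaller for Srxn1 (0.29 in place of 0.49), Slc7a11 (0.19 in place of 0.44), Nqo1 (0.23 in place of 0.39) and Gsta3 (0.27 in place of 0.51). They were also smaller for Abcc4 (0.44 in place of 0.65), Gsta4 (0.32 in place of 0.45), Abcc3 (0.31 in place of 0.37) and Txnrd1 (0.38 in place of 0.40). Those of Me1 (0.81 in place of 0.69) and Gstp1 (0.68 in place of 0.66) were larger. Over the whole list of 19 glutathione transferases the median difference was 0.05 (0.08 without replicate 2). Of these, 2 lay entirely above and 0 entirely below, against 7.59% and 5.56% of all genes.

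Genes of cell division separated the arrays of the higher dose from each other. On replicates 1 and 3 at 881 mg/kg the median member of the cell cycle list of 45 genes lay 0.80 and 0.75 log2 units above the 440 mg/kg mean. On these arrays 40 and 39 members lay above all 3 arrays of the lower dose, where 3793 and 3757 of all 14217 genes did. On replicate 2 the median member lay 0.18 below that mean, 8 members lay above all 3 arrays and 23 below all 3. Over all 14217 genes, 5725 lay above and 4052 below on that array. In liver RNA a gene's level cannot tell apart fewer cells of a type from less RNA per cell, so the number of dividing cells is not given by these values. None of the 45 passed the test with all arrays, and 11 were called higher without replicate 2, where 0.288% of all genes were. The calls without replicate 2 hold genes chosen by that fit, so they describe 2 arrays against 3 and add no independent support.

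**Figure D2:**
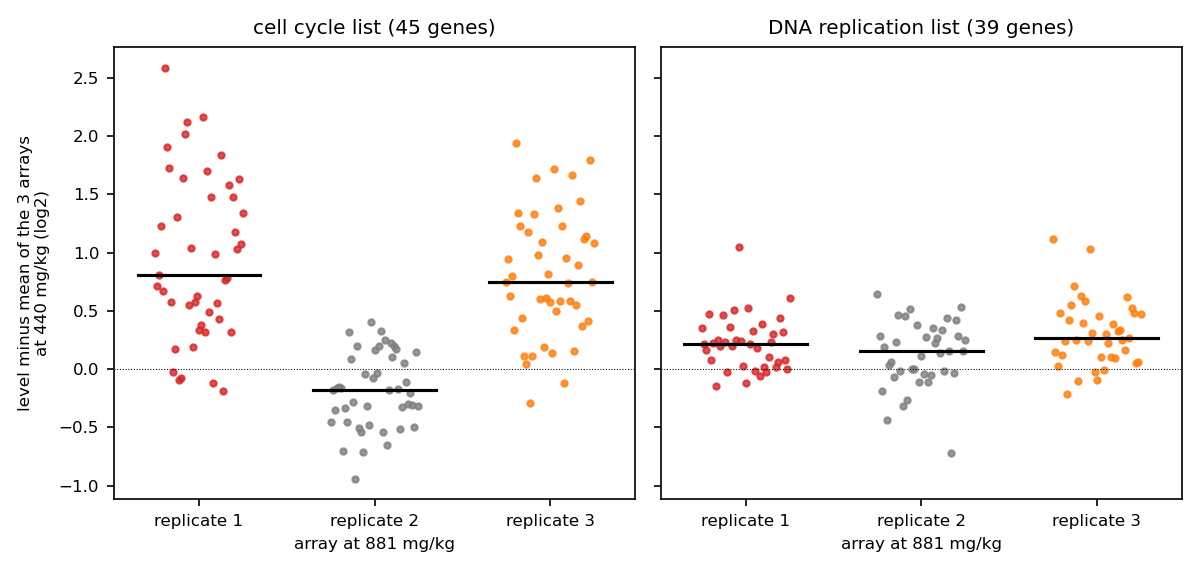
Level of each gene on each array at 881 mg/kg minus its mean over the 3 arrays at 440 mg/kg (log2), for the cell cycle list (45 genes, left) and the DNA replication list (39 genes, right); points are genes and bars are medians. The cell cycle medians are 0.80, -0.18 and 0.75 on replicates 1, 2 and 3, and those of DNA replication are 0.22, 0.15 and 0.27.

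The pattern is shown with 4 mitotic genes beside their promoters, chosen because they were called without replicate 2 and carry a TTTGAA match; they were picked after these results were seen. Many G2 and M phase genes carry 2 promoter elements, the cell cycle genes homology region, TTTGAA, through which the DREAM and MMB complexes act, and CCAAT boxes bound by NF-Y. Below are the 250 bases before the start of each gene, 5′ to 3′ on the gene's strand, from RefSeq on GRCr8, with TTTGAA on either strand in capitals. They lie at chr1:199952594-199952843 (minus strand, Mki67), chr20:19265043-19265292 (plus strand, Cdk1), chr10:84473094-84473343 (minus strand, Top2a) and chr10:25665216-25665465 (minus strand, Hmmr).
Mki67: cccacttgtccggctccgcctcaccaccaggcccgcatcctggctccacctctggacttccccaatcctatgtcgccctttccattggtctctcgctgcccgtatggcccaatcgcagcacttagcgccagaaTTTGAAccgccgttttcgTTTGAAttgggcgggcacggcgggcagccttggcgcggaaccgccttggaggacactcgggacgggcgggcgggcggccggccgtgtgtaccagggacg
Cdk1: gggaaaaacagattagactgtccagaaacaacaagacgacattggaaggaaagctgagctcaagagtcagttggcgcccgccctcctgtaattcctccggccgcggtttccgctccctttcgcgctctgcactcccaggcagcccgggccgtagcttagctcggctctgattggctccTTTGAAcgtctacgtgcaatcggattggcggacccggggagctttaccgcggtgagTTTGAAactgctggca
Top2a: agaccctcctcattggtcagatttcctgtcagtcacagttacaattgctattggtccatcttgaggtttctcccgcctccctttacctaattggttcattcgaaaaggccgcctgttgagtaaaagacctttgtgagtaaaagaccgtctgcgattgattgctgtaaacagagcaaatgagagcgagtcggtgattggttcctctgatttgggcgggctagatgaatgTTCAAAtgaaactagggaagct
Hmmr: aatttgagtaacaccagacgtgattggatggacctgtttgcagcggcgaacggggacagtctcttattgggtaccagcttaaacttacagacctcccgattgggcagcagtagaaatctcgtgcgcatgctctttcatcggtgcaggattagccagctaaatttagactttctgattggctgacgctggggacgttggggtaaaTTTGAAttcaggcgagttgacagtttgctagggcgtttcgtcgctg
The TTTGAA matches start at -117 and -99 of Mki67, -72 and -16 of Cdk1, -22 of Top2a, where it is on the opposite strand, and -46 of Hmmr, counted from the base after the window. CCAAT on either strand occurs 4 times in Mki67, 3 in Cdk1, 4 in Top2a and 4 in Hmmr, and in Mki67 a CCAAT match shares a base with the match at -99. Of the 35 cell cycle genes with a promoter in the table, 13 (37.1%) had TTTGAA and 26 (74.3%) had CCAAT, where 10.9% and 35.1% of 11700 promoters of tested genes did. DNA replication genes held them in 3 of 36 (8.33%) and 19 of 36 (52.8%). A match is a string of letters in a window and not a bound site.

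Mki67, the proliferation antigen Ki-67, measured 5.41, 6.03 and 5.35 at 440 mg/kg and 7.44, 5.77 and 7.27 at 881 mg/kg. Cdk1, the kinase that starts mitosis, measured 6.09, 6.87 and 6.59 against 8.54, 5.98 and 8.15. Top2a, the topoisomerase that disentangles sister chromatids, measured 6.18, 6.78 and 6.36 against 8.08, 5.95 and 8.23. For all 3, replicates 1 and 3 of the higher dose lay above every array of the lower dose and replicate 2 lay within or below them. Hmmr, a spindle and hyaluronan binding protein, measured 5.92, 6.12 and 5.88 against 7.67, 5.43 and 7.36. Without replicate 2 the differences were 1.75 ± 0.31 for Mki67 (adjusted p = 0.0355), 1.83 ± 0.26 for Cdk1 (0.0105), 1.71 ± 0.21 for Top2a (0.0045) and 1.54 ± 0.18 for Hmmr (0.00307); with all arrays adjusted p was 0.3 to 0.534. Vehicle arrays lay between 4.64 and 5.97 for Mki67 and between 6.13 and 7.01 for Cdk1, so replicates 1 and 3 were above the undosed liver too.

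Of the cyclins in the cell cycle list, Ccna2 and Ccnb1 were called without replicate 2, and Ccnb2, Ccne1, Ccne2 and Ccnd1 were not. Ccna2 (cyclin A2) measured 4.84, 5.56 and 4.86 against 7.68, 4.92 and 7.03, the widest difference among genes called without replicate 2, at 2.26 ± 0.32. Ccnb1 (cyclin B1) measured 5.65, 5.83 and 5.70 against 7.64, 5.03 and 7.07. A second Ccnb1 probe set differed by 1.65 without replicate 2 and was not called (adjusted p = 0.102, limma over all probe sets). Ccnb2 (cyclin B2) differed by 1.48 ± 0.41 without replicate 2 (adjusted p = 0.172, limma). Cyclin E1 (Ccne1) measured 6.94, 6.71 and 7.22 against 6.93, 7.28 and 7.07, with replicate 2 highest. Ccne2 (cyclin E2) measured 4.52, 4.67 and 4.51 against 4.73, 4.65 and 4.60, and Ccnd1 (cyclin D1) 10.07, 9.35 and 10.18 against 10.44, 9.42 and 10.30. Ccne1, Ccne2 and Ccnd1 overlapped between the doses, with adjusted p-values of 0.636 to 0.961 without replicate 2. Called in the same fit were the mitotic kinases Pbk (difference 1.51) and Aurka (0.87), the midzone organiser Prc1 (1.30), the ubiquitin ligase partner of mitosis Ube2c (1.21), the kinetochore subunit Spc25 (1.48), the chromosome motor Kif22 (1.28), the PCNA partner Pclaf (1.55) and Depdc1 (1.35). Of the 41 genes called higher without replicate 2, 24 had that array at or below the highest array of the lower dose, so these calls came from replicates 1 and 3. Among the 13 called lower, 6 had replicate 2 at or above the lowest array of the lower dose. Gbp7, an interferon-induced GTPase, measured 8.82, 9.41 and 9.47 against 7.60, 9.62 and 7.23. Glyat, a mitochondrial glycine acyltransferase of hepatocytes, measured 10.65, 10.59 and 10.67 against 10.21, 10.84 and 10.21. On replicate 2, Gbp7 and Glyat lay above all 3 arrays of the lower dose. These genes were chosen by a fit that left replicate 2 out.

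Not all cell cycle genes followed that division. Of the transcription factors in the list, Foxm1 measured 6.11, 6.26 and 6.35 against 6.56, 6.57 and 6.74 and E2f1 6.19, 5.96 and 6.21 against 6.46, 6.28 and 6.70 (adjusted p = 0.28 and 0.429), without overlap and with no call in any of the 16 alternatives. A second, dimmer probe set for Foxm1 differed by 0.01. Mybl2, the Myb factor of the MMB complex, measured 5.55, 5.47 and 5.80 against 5.42, 5.43 and 5.77 and overlapped (-0.07 ± 0.12, adjusted p = 0.922). Kif23 was the member whose groups separated in the downward direction, by 0.14, with an adjusted p of 0.8. Its second probe set, of like brightness, differed upward by 0.47 ± 0.19, and by 0.62 without replicate 2, so the 2 probe sets disagree. Averaged over its probe sets, the Kif23 difference was 0.17 in the upward direction.

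DNA replication genes, which act in S phase, were mostly higher at the higher dose, with a positive median on each of its 3 arrays. Of 39 measured, 17 lay entirely above the lower dose and 0 entirely below, beside 7.59% and 5.56% of all genes. The median difference was 0.20 log2 units, and the list's mean level was 6.98 to 7.03 at 440 mg/kg and 7.13 to 7.31 at 881 mg/kg, with 6.80 to 6.91 on the vehicle arrays. In contrast to the mitotic genes, the median on replicate 2 was positive, 0.15 beside 0.22 and 0.27. On replicates 1, 2 and 3, 26, 23 and 30 members lay above all 3 arrays of the lower dose. Over all 14217 genes, 3793, 5725 and 3757 did, so replicate 2 stood out least from that background. On replicate 2, 7 members lay below all 3 arrays, beside 4052 of all genes. None passed the test with all arrays and 2, Mcm6 and Uhrf1, were called higher without replicate 2, where 0.288% of all genes were.

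Cdt1, which loads the replicative helicase, had the largest difference of the list. It measured 5.21, 5.08 and 5.13 at 440 mg/kg and 5.49, 5.78 and 6.26 at 881 mg/kg (0.70 ± 0.14, adjusted p = 0.102). Among helicase subunits, Mcm2 measured 6.65, 6.51 and 6.73 against 6.99, 7.09 and 7.26 (0.48 ± 0.11, adjusted p = 0.112) and Mcm4 7.51, 7.65 and 7.53 against 8.07, 8.08 and 8.15 (0.54 ± 0.14, adjusted p = 0.202). Both subunits lay above the lower dose on all 3 arrays, replicate 2 included. Mcm6, by contrast, measured 6.17, 6.00 and 5.96 against 7.09, 6.04 and 7.07, the pattern of the mitotic genes. Uhrf1, which maintains DNA methylation behind the fork, measured 4.91, 4.88 and 4.91 against 5.51, 5.15 and 5.37. Hells, a chromatin remodeller, and Rrm1, a subunit of ribonucleotide reductase, had differences of 0.55 ± 0.16 and 0.46 ± 0.14 with groups that did not overlap (adjusted p = 0.268 for both).

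Some tubulin genes, which encode the subunits of microtubules, were among the calls; no list of them was fixed, and the 4 given here were picked from the calls without replicate 2. Tubb2a measured 9.60, 10.38 and 10.07 at 440 mg/kg and 11.47, 10.94 and 12.11 at 881 mg/kg, a difference of 1.49 ± 0.30 (2.81-fold), with an adjusted p of 0.0966 over all dosed arrays, 0.026 without replicate 2 and 0.0469 with the replicate block. Tubb5 measured 9.18, 9.33 and 9.22 against 10.32, 9.50 and 10.17, and a second probe set for it differed likewise (0.63 ± 0.16). Tubb6 and Tuba4a differed by 0.65 ± 0.19 and 0.64 ± 0.18 with adjusted p-values of 0.257 and 0.214. For Tubb2a the vehicle arrays were higher than both doses, at 12.39 to 12.69, and the means at 55, 110 and 220 mg/kg were 10.76, 10.47 and 10.59. The second Tubb6 probe set, far dimmer, differed by -0.09.

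Other growth and damage genes were less separated. Myc, a driver of cell growth, measured 8.49, 7.95 and 7.68 against 8.49, 9.66 and 9.99, so replicate 1 of the higher dose matched the highest array of the lower one to the printed precision (1.34 ± 0.39, adjusted p = 0.241). Of 17 measured genes of the p53 response, 2 lay entirely above and 1 entirely below, against 7.59% and 5.56% of all genes, and the median difference was 0.09, or -0.02 without replicate 2. Mdm2, the ligase that degrades p53, measured 8.81, 8.56 and 8.81 against 9.10, 9.35 and 9.02 (adjusted p = 0.202). Cdkn1a, the p21 inhibitor, measured 7.90, 8.40 and 8.31 against 8.54, 8.09 and 8.52 and overlapped (0.18, and 0.33 without replicate 2); its vehicle arrays lay at 9.61 to 10.76, above both doses.

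**Figure D3:**
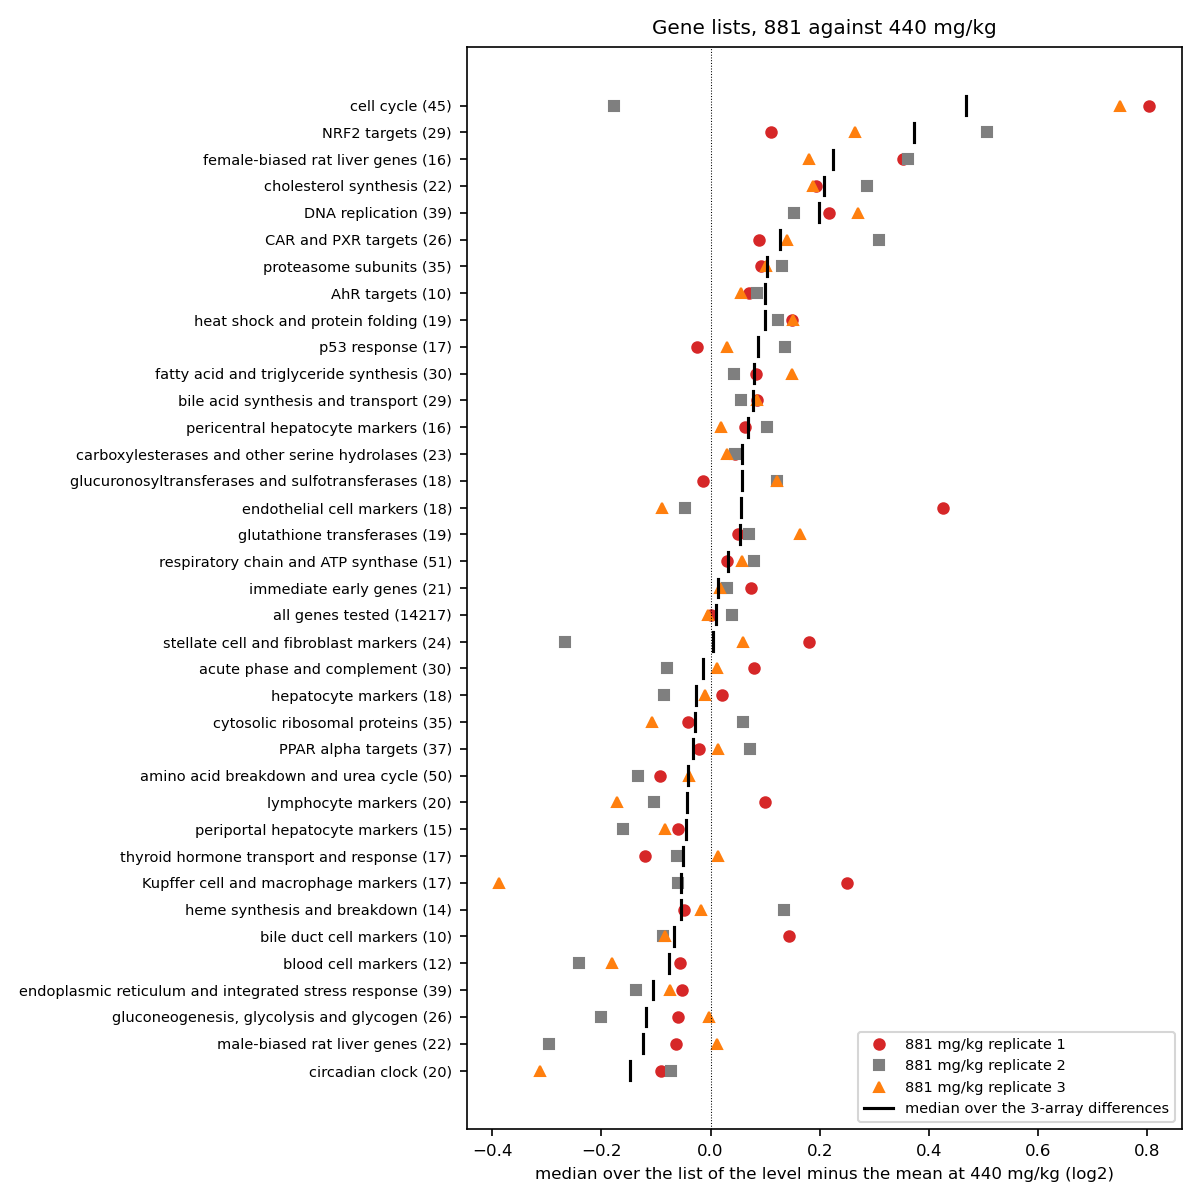
Median over the measured members of each of 36 gene lists, and over all 14217 genes, of the level on each array at 881 mg/kg minus the mean at 440 mg/kg (log2); symbols are the 3 arrays, the tick is the median of the members' differences over all 3 arrays, and member counts stand in parentheses. The cell cycle list stands at 0.80 and 0.75 on replicates 1 and 3 and at -0.18 on replicate 2.

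Clock and clock output genes were among the widest differences of the comparison. Nfil3, a repressor of D-box genes that is also raised by fasting and stress signals, measured 7.54, 8.35 and 8.06 at 440 mg/kg and 9.11, 9.97 and 9.52 at 881 mg/kg. The difference was 1.55 ± 0.23, 2.92-fold, with an adjusted p of 0.0643 over all dosed arrays, 0.03 without replicate 2 and 0.0247 with the replicate block. It was of like size between arrays of the same number, 1.57, 1.61 and 1.46. Vehicle arrays lay at 9.68 to 10.65 and the means at 55, 110 and 220 mg/kg were 8.83, 8.87 and 8.39, so 440 mg/kg was the lowest dose group of the series and 881 mg/kg lay nearer to vehicle.

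In the opposite direction, Per1, a clock repressor, measured 8.79, 8.57 and 8.51 against 8.04, 7.77 and 7.84 (-0.74 ± 0.13), with an adjusted p of 0.0687 and of 0.0469 with the replicate block. Usp2, a rhythmic deubiquitinase, measured 10.33, 9.49 and 10.15 against 8.89, 9.10 and 8.07 (adjusted p = 0.308), and its second probe set differed likewise, by -1.34. Bhlhe40, a repressor of clock output, measured 9.34, 9.38 and 8.74 against 8.53, 7.46 and 8.29 (adjusted p = 0.269). The D-box activator Tef measured 9.79, 9.78 and 9.76 against 9.45, 9.49 and 9.16 (adjusted p = 0.151). Its other, dimmer probe sets differed by -0.13 and -0.15, beside -0.41 for the one used. For these 4 genes no array of the higher dose reached the range of the lower dose, and in each case the vehicle mean lay below the mean at 440 mg/kg.

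The core oscillator genes were less separated. Clock measured 8.41, 8.89 and 8.62 against 8.98, 9.21 and 9.09 (adjusted p = 0.223), without overlap, whereas Bmal1 measured 5.56, 6.47 and 6.01 against 6.41, 6.18 and 7.22 and overlapped. The other Clock probe sets, all dimmer, differed by 0.19, 0.006 and -0.05, beside 0.46 for the one used. Dbp, the D-box activator most strongly driven by the clock, measured 10.87, 10.14 and 10.38 against 10.19, 10.00 and 9.18 (-0.67 ± 0.33, adjusted p = 0.562); both doses were far above the vehicle arrays at 5.73 to 6.34. Over the 20 measured clock genes the median difference was -0.15 (-0.07 without replicate 2). Of these, 3 lay entirely above and 4 entirely below, against 7.59% and 5.56% of all genes. The list's mean level was 8.38 to 8.45 at 440 mg/kg and 8.21 to 8.30 at 881 mg/kg. The hour at which each rat was killed is not given in the sources used here, and a difference in hour between the dose groups was not tested.

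Genes of fuel use differed in both directions. Pdk4, the kinase that shuts pyruvate dehydrogenase in fasting, measured 7.25, 7.38 and 6.82 at 440 mg/kg and 8.22, 9.08 and 9.84 at 881 mg/kg. The difference of 1.90 ± 0.33 (3.73-fold) had an adjusted p of 0.0687 over all dosed arrays, 0.0519 without replicate 2 and 0.0469 with the replicate block. As for Osgin1, 440 mg/kg was the low group of the series, with vehicle at 9.85 to 10.63 and means of 9.30, 8.92 and 8.83 at the 3 lower doses. The second Pdk4 probe set, dimmer, differed by 0.04 ± 0.14, so the 2 probe sets disagree. Irs2, the insulin receptor substrate that rises in fasting, measured 6.41, 6.44 and 6.70 against 7.20, 7.47 and 7.60 (0.91 ± 0.17, adjusted p = 0.079). Here too 440 mg/kg was the low group, with vehicle at 7.14 to 7.52. The means of Irs2 at 55, 110 and 220 mg/kg were 7.27, 7.18 and 6.94.

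Lpin1, the phosphatidate phosphatase of triglyceride synthesis, measured 11.71, 10.97 and 11.42 at 440 mg/kg and 9.69, 10.29 and 9.95 at 881 mg/kg. The difference was -1.39 ± 0.22, 2.62-fold lower, with an adjusted p of 0.0643 over all dosed arrays, 0.0113 without replicate 2 and 0.0469 with the replicate block, and its second probe set differed by the same -1.39. Mfsd2a, a transporter of lysophosphatidylcholine, measured 10.40, 9.84 and 9.92 against 8.57, 9.08 and 8.64 (-1.29 ± 0.25, adjusted p = 0.09, and 0.0447 without replicate 2). Both genes were lower at the higher dose on every array. For Mfsd2a the means at 55, 110 and 220 mg/kg were 8.64, 9.15 and 8.98. Its vehicle arrays lay at 8.40 to 9.36, so 440 mg/kg was the high group of the series. For Lpin1 the means at 55, 110 and 220 mg/kg were 9.64, 9.83 and 10.34, so the arrays at 440 mg/kg lay above the other dosed groups. Vehicle arrays ran from 10.30 to 11.74, with a median of 11.39, near the mean of 11.37 at 440 mg/kg, while the arrays at 881 mg/kg lay among those of the lower doses.

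Lipid synthesis enzymes were spread widely within a dose. Gpam, the first acyltransferase of triglyceride synthesis, measured 5.50, 5.54 and 4.96 against 6.14, 6.34 and 6.63 (1.04 ± 0.25, adjusted p = 0.137). Its second probe set, of like brightness, differed less, by 0.29 ± 0.12, and by 0.47 without replicate 2. On the Gpam probe set used, vehicle arrays lay at 6.11 to 6.79. Its means at 55, 110 and 220 mg/kg were 6.07, 6.01 and 5.87, so 440 mg/kg was the low group. Elovl6, which elongates palmitate, measured 8.38, 7.70 and 7.61 against 8.53, 8.46 and 9.87 (adjusted p = 0.428), without overlap and with both doses above the vehicle arrays at 6.98 to 7.45. Scd, the stearoyl-CoA desaturase, measured 8.76, 7.54 and 7.35 against 7.88, 6.21 and 9.36 (adjusted p = 0.984), the lowest and highest values both being at 881 mg/kg. Fasn (0.39 ± 0.28, adjusted p = 0.744), Plin2, a lipid droplet coat protein (-0.18 ± 0.23, adjusted p = 0.881), and the PPAR alpha target Cyp4a1 (0.27 ± 0.20, adjusted p = 0.744) overlapped between the doses. Without replicate 2 the difference was 0.73 for Scd and 0.12 for Plin2, each with the opposite sign, and 0.10 for Cyp4a1. Over the 30 measured genes of fatty acid and triglyceride synthesis the median difference was 0.08 (0.14 without replicate 2). Of these, 6 lay entirely above and 1 below, against 7.59% and 5.56% of all genes. Over 37 PPAR alpha targets the median difference was -0.03 (0.0049 without replicate 2).

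Cholesterol synthesis had 7 of 22 measured genes entirely above the lower dose and 2 entirely below, against 7.59% and 5.56% of all genes. The list's median was 0.21 log2 units (0.13 without replicate 2). Ebp, a sterol isomerase, measured 11.67, 11.82 and 11.68 against 12.13, 12.27 and 12.09 (0.44 ± 0.12, adjusted p = 0.207), and Tm7sf2, a sterol reductase, 11.19, 11.51 and 11.20 against 11.95, 11.89 and 11.72 (adjusted p = 0.312). Insig1, the protein that holds back sterol-regulated transcription, went the other way, with 12.30, 12.62 and 12.26 against 11.54, 11.44 and 11.74 (adjusted p = 0.421). Cyp7a1, which limits the classic route from cholesterol to bile acids, measured 10.98, 11.78 and 12.49 against 12.04, 12.61 and 11.91 and overlapped (0.44, and 0.23 without replicate 2; adjusted p = 0.752).

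Targets of CAR and PXR were mostly higher at the higher dose, and none passed the test. Of 26 measured, 9 lay entirely above and 1 entirely below, against 7.59% and 5.56% of all genes. Of their differences 22 were positive, with a median of 0.13, and 0.12 without replicate 2. Their mean level was 10.94 to 10.98 at 440 mg/kg, 11.17 to 11.43 at 881 mg/kg and 10.13 to 10.23 on vehicle arrays. The median member lay 0.09, 0.31 and 0.14 above the 440 mg/kg mean on replicates 1, 2 and 3. The array with the 3′ excess was thus the highest, and whether its RNA quality bears on the list was not tested. Akr1b7, an aldo-keto reductase, had the largest difference of the comparison. It measured 6.60, 8.03 and 4.02 at 440 mg/kg and 9.86, 10.62 and 8.21 at 881 mg/kg (3.35 ± 0.91, 10.2-fold, adjusted p = 0.207). Vehicle arrays lay at 4.39 to 4.92, so at the lower dose 1 array was below and 2 were above the vehicle range, and the arrays of that dose spanned more than the difference between the doses. Its relative Akr1b8 measured 4.88, 5.57 and 4.94 against 6.86, 8.87 and 5.53 (adjusted p = 0.211), with the array of the 3′ excess highest; the difference was 1.95, and 1.06 without that array.

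Ces2c, a carboxylesterase, measured 11.82, 12.35 and 12.43 against 12.63, 13.33 and 12.60 (0.66 ± 0.26, adjusted p = 0.437), where vehicle arrays lay at 8.75 to 8.92. Cyp3a23-3a1, the main inducible CYP3A of rat liver, differed by 0.14 ± 0.17 (adjusted p = 0.87), with an overlap of the groups. Among esterases that organophosphates can bind, Ces1d measured 13.48, 13.57 and 13.71 against 12.63, 13.33 and 13.22 (-0.53 ± 0.15, adjusted p = 0.241), without overlap, and Bche (butyrylcholinesterase) differed by -0.22 ± 0.16 (adjusted p = 0.733). Cyp1a1, the sentinel gene of the AhR, measured 6.28, 7.63 and 7.99 against 7.42, 9.43 and 8.04 and overlapped (adjusted p = 0.49), and Cyp1a2 differed by 0.10 ± 0.10 (adjusted p = 0.844). Alas1, the first enzyme of heme synthesis, differed by 0.24 ± 0.22 (adjusted p = 0.821). Without replicate 2 the differences were smaller for Ces2c (0.42), Cyp1a1 (0.43) and Cyp3a23-3a1 (0.08).

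Conjugating enzymes went both ways. Of 18 measured glucuronosyltransferases and sulfotransferases, 6 lay entirely above and 4 entirely below, against 7.59% and 5.56% of all genes. Sult1c3, a sulfotransferase, measured 13.08, 13.15 and 12.91 against 12.48, 11.99 and 12.36 (-0.77 ± 0.14), with an adjusted p of 0.0717 and of 0.0469 with the replicate block. Sult1c2 measured 8.24, 8.76 and 8.18 against 7.57, 7.42 and 6.57 (-1.21 ± 0.34, adjusted p = 0.217) and Sult1a1 12.97, 12.67 and 12.60 against 12.38, 12.15 and 12.42 (adjusted p = 0.163). All 3 sulfotransferases were lower on every array of the higher dose. Ugt2b10, a glucuronosyltransferase, measured 11.47, 11.57 and 11.52 against 12.03, 12.34 and 11.72 (0.50 ± 0.12, adjusted p = 0.137). These genes belong to families of near-identical members, and cross-hybridisation between them was not tested.

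Genes that differ between male and female rat liver, which growth hormone pulses set, separated in part. Of 16 measured female-biased genes 8 lay entirely above the lower dose and 0 below, against 7.59% and 5.56% of all genes. The female-biased median was 0.22. Of 22 male-biased genes 4 lay above and 4 below. Their median was -0.12, and -0.02 without replicate 2; by array it was -0.06, -0.30 and 0.01. Cyp2c12, the hallmark female P450, measured 11.68, 11.66 and 11.72 against 12.55, 12.89 and 12.09 (0.83 ± 0.25, adjusted p = 0.269), within the vehicle range of 10.44 to 12.42 on 1 of the 3 arrays. Trim24, a nuclear receptor cofactor, measured 7.40, 6.92 and 6.65 against 7.69, 8.21 and 7.73 (adjusted p = 0.383). Other members were Cyp2a1 and Cyp2c7, whose lower-dose arrays included a lower value on replicate 3 (10.67 and 13.19). Cyp2c11, the hallmark male P450, measured 14.19, 13.97 and 14.20 against 13.88, 13.61 and 14.14 and overlapped (-0.25, and -0.11 without replicate 2; adjusted p = 0.562). Male-biased members also differed in the upward direction: Akr1c1, a hydroxysteroid dehydrogenase, measured 7.77, 8.08 and 6.64 against 8.71, 8.54 and 8.44 (adjusted p = 0.332), and Bcl6, a transcriptional repressor, 7.35, 8.20 and 8.95 against 10.68, 9.80 and 8.72 (adjusted p = 0.575). In the downward direction, Slc22a8, an organic anion transporter, measured 11.53, 11.11 and 11.17 against 10.27, 10.08 and 10.67 (-0.93 ± 0.18, adjusted p = 0.09), and the steroid dehydrogenase Hsd17b2 13.33, 12.69 and 12.81 against 12.60, 12.11 and 11.91 (adjusted p = 0.301).

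Serpina7, thyroxine-binding globulin, had the widest downward difference among genes whose groups did not overlap. It measured 9.95, 10.60 and 10.65 at 440 mg/kg and 8.95, 8.59 and 8.50 at 881 mg/kg. The difference was -1.72 ± 0.34, 3.30-fold lower, with an adjusted p of 0.0934, 0.0885 without replicate 2 and 0.0731 with the replicate block, so it passed none of these fits and passed the fit over all 20 arrays (0.0426), which called 0.134% of genes higher and 0.127% lower. No array at the 4 lower doses or vehicle was as low as the highest array at 881 mg/kg. Klf9, a transcription factor induced by thyroid hormone and glucocorticoid, measured 12.11, 11.83 and 12.11 against 11.04, 11.35 and 10.98 (-0.89 ± 0.20, adjusted p = 0.118). Over the 17 measured genes of thyroid hormone transport and response, 2 lay entirely above and 2 entirely below, against 7.59% and 5.56% of all genes. The list's median was -0.05.

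Some genes of red cells had lower values at the higher dose; none passed the test over all dosed arrays, and Alas2 and Hba-a3 passed with the replicate block. Alas2, the erythroid enzyme of heme synthesis, measured 7.81, 7.25 and 6.81 against 6.64, 5.30 and 5.90 (-1.35 ± 0.32), with an adjusted p of 0.137 and of 0.0296 with the replicate block. Hba-a3, an alpha globin, measured 11.45, 11.39 and 10.73 against 10.28, 9.35 and 9.85 (-1.36 ± 0.30), with an adjusted p of 0.112 and of 0.0469 with the block. Hbb, the beta globin, measured 12.94, 12.73 and 11.72 against 11.75, 9.91 and 10.41 (-1.78 ± 0.44, adjusted p = 0.151, and 0.0568 with the block) and overlapped by 1 array. Vehicle arrays ran from 7.29 to 8.41 for Alas2, from 11.21 to 12.10 for Hba-a3 and from 12.44 to 13.34 for Hbb, above every array at 881 mg/kg. Nfe2, a transcription factor of the erythroid and platelet lineages, measured 8.65, 8.60 and 8.42 against 7.21, 7.13 and 6.74 (-1.53 ± 0.47, adjusted p = 0.269). Here both doses lay above most vehicle arrays, at 5.36 to 6.90. Its SD was 0.12 and 0.25 at the 2 doses and 0.88, 0.76 and 0.94 at 55, 110 and 220 mg/kg. With limma on the 6 arrays alone adjusted p was 0.0766, the smallest of that fit. Of the 16 alternatives, 1 called Nfe2. Of the 12 measured blood cell markers 2 lay entirely below and 0 above, against 5.56% and 7.59% of all genes. Among these markers 4 differences were positive and the median was -0.08. Their mean level was 6.92 to 7.29 at 440 mg/kg and 6.60 to 7.03 at 881 mg/kg. How much blood each piece of liver held is not known, and its part in these values was not tested.

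Genes of the unfolded protein response and its relatives lay on both sides, and none passed the test. Of 39 measured, 4 lay entirely above and 5 entirely below, against 7.59% and 5.56% of all genes, with a median of -0.11 (-0.06 without replicate 2) and a mean level of 10.37 to 10.45 at 440 mg/kg against 10.27 to 10.32 at 881 mg/kg. Xbp1, a factor of the unfolded protein response, measured 13.01, 12.80 and 12.86 against 12.22, 12.49 and 12.30 (-0.55 ± 0.12, adjusted p = 0.112). Herpud1, a part of the degradation machinery of the endoplasmic reticulum, measured 12.44, 12.37 and 12.55 against 12.03, 12.03 and 11.78 (adjusted p = 0.139), and Atf4, the effector of the integrated stress response, 12.38, 12.37 and 12.32 against 12.00, 12.10 and 12.03 (adjusted p = 0.347). None of these 3 genes overlapped between the doses. Ddit3 (CHOP) differed by -0.17 ± 0.18 (adjusted p = 0.848), Gdf15, a stress-induced cytokine, by 0.36 ± 0.16 (adjusted p = 0.49), and Fgf21, a fasting and stress hormone of the liver, by -0.68 ± 0.38 (adjusted p = 0.626). Of 50 measured genes for breaking down amino acids and making urea, 10 lay entirely below and 3 above, among them Agxt, the glyoxylate aminotransferase, with 11.31, 11.36 and 11.11 against 10.73, 10.46 and 10.78 (-0.60 ± 0.13, adjusted p = 0.113), and Sds, serine dehydratase (-0.63 ± 0.40, adjusted p = 0.683).

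For the lists of this paragraph, the shares over all genes were 7.59% entirely above and 5.56% entirely below. Of 35 measured proteasome subunits, 10 lay entirely above and 0 entirely below, with small differences. The median was 0.10 log2 units, and the list's mean level was 10.63 to 10.68 at 440 mg/kg and 10.74 to 10.76 at 881 mg/kg. None passed the test. Heat shock and folding genes had 6 of 19 above and 1 below, and respiratory chain and ATP synthase genes 6 of 51 above and 0 below, with medians of 0.10 and 0.03. Cytosolic ribosomal proteins had 0 of 35 above and 3 below, with a median of -0.03 (-0.07 without replicate 2).

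The genes that were called with the replicate block, or in both further fits, include several outside these groups. Il6r, the interleukin 6 receptor, measured 11.22, 11.04 and 11.03 against 10.51, 10.46 and 10.34 (-0.66 ± 0.12), with an adjusted p of 0.0708 over all dosed arrays, 0.0492 without replicate 2 and 0.0469 with the block. Vasn (vasorin, a TGF-beta binding protein) measured 8.32, 8.42 and 8.41 against 7.95, 7.73 and 7.61 with the same p-values in both further fits. Rarb, a retinoic acid receptor, measured 9.21, 9.14 and 8.73 against 9.97, 9.78 and 10.10 (adjusted p = 0.0687, and 0.0289 and 0.0469 in the further fits). Egln3, a prolyl hydroxylase of the hypoxia response, measured 4.63, 4.36 and 4.51 against 5.39, 5.90 and 5.28 (adjusted p = 0.0687, and 0.0472 and 0.0469). These 4 genes had groups that did not overlap. For Il6r the means at 55, 110 and 220 mg/kg were 10.22, 10.38 and 10.64. Its vehicle arrays lay at 10.49 to 10.90, so 440 mg/kg was the high group of the series. Besides those given above, the fit with the block called Tent2, Mnd1, Prmt3, Gramd2b, Pgp and Tmcc3, higher by 0.52 to 0.80, and Tent5c, lower by 0.62; none of these was called without replicate 2.

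**Figure D4:**
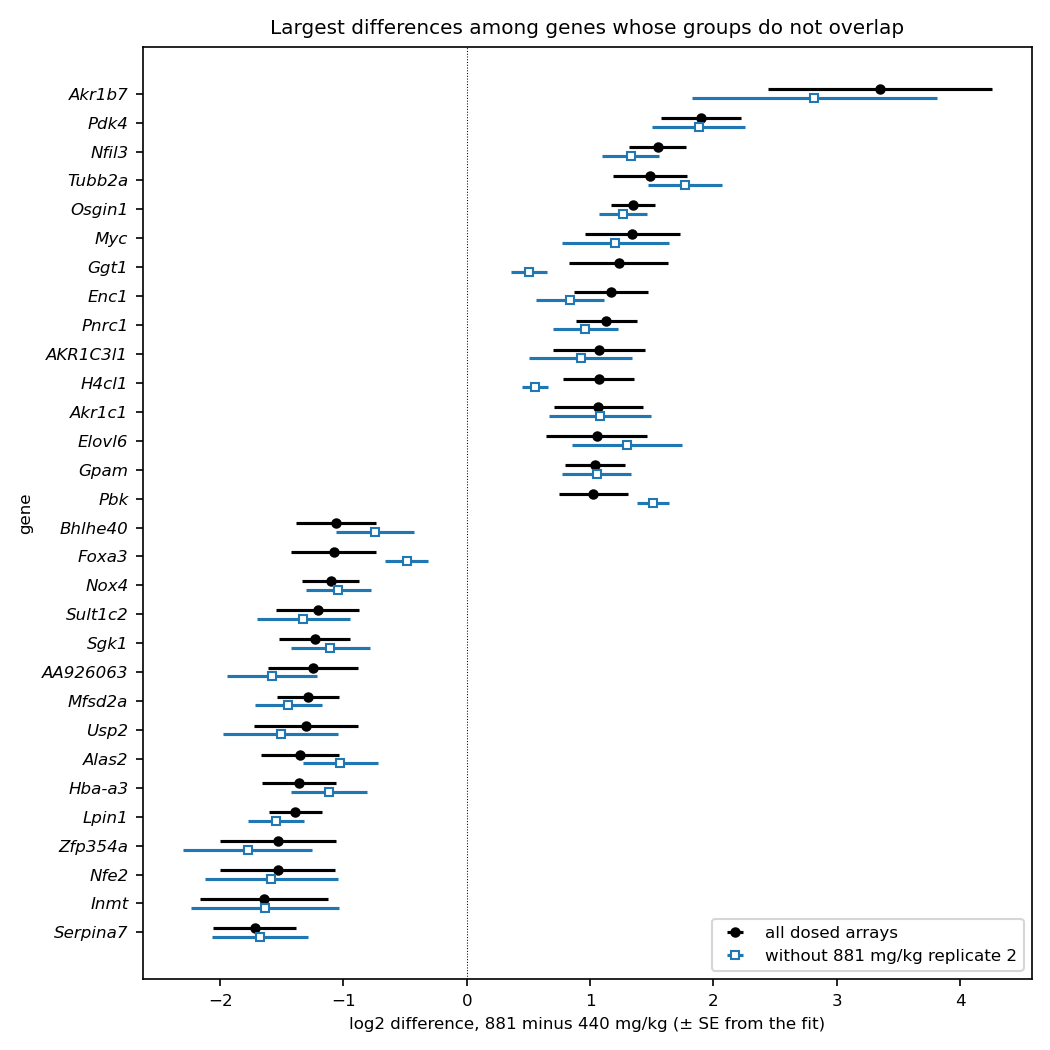
Difference in level between 881 and 440 mg/kg (log2, with the SE of the fit) for the 15 genes with the largest positive and the 15 with the largest negative difference among those whose groups did not overlap; filled circles are the fit over all dosed arrays and open squares the fit without 881 mg/kg replicate 2. Ggt1 and Foxa3 differ most between the 2 fits, and Osgin1 is the gene that passed the test in the first.

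Markers of endothelial cells and macrophages differed more between replicate numbers than between doses. The mean level of 18 endothelial markers on replicates 1, 2 and 3 was 8.65, 8.16 and 7.87 at 440 mg/kg and 8.69, 8.20 and 8.11 at 881 mg/kg. That of 17 Kupffer cell and macrophage markers was 9.41, 9.23 and 8.95 against 9.45, 9.04 and 8.88. Replicate 1 was the highest and replicate 3 the lowest of each dose in both lists, and the ranges of the doses overlapped. Stellate cell and fibroblast markers, 24 measured, did not keep that order, with 7.56, 7.37 and 7.34 at 440 mg/kg and 7.64, 7.22 and 7.45 at 881 mg/kg. Bile duct markers, 10 measured, ran the opposite way in the 2 doses, with 6.64, 6.75 and 6.92 against 6.85, 6.72 and 6.53. Lymphocyte markers, 20 measured, lay at 6.13, 6.08 and 5.84 against 6.16, 5.97 and 5.80. None of these 5 lists had a member called in any of the 3 fits. The single genes C1qa, a macrophage complement gene (-0.36 ± 0.23, adjusted p = 0.701), Col3a1, a collagen (-0.03 ± 0.23, adjusted p = 0.985), and Lox, a collagen crosslinker (0.04 ± 0.75, adjusted p = 0.992), overlapped between the doses, as did the taurine transporter Slc6a6 (-0.11 ± 0.29, adjusted p = 0.95). Without replicate 2 the differences were -0.11 for C1qa, 0.21 for Col3a1, with the opposite sign, 0.22 for Lox and -0.055 for Slc6a6. Pericentral hepatocyte markers lay at 9.72 to 9.86 and 9.80 to 9.89 and periportal ones at 11.78 to 11.83 and 11.66 to 11.72.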

How the data were processed

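RNA from 20 liver samples was measured on Affymetrix arrays. The authors' deposited values are log2 levels per probe set, made by RMA per the submitters' processing notes; for RMA's version, its settings and any scan batch, the sources used here give nothing. RMA forces arrays onto a common distribution, which can hide a shift of all genes. Depth has no meaning for arrays, and 3 arrays a group limit the precision.

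Of 31099 probe sets, 57 controls were set aside. A gene was named where the platform annotation gave 1 symbol (20826 probe sets; 436 gave several and 9780 none), and 20758 matched RefSeq (GRCr8) by gene ID. A gene was read from its brightest probe set by the mean of all 20 arrays, which gave 14217 genes, 4525 of them with several probe sets. limma (3.58.1, R 4.3.3; lmFit and eBayes) was fitted over the 15 dosed arrays in 5 groups, and the contrast 881 minus 440 mg/kg was adjusted by Benjamini-Hochberg over all genes, with 0.05 as threshold; the script was tested on simulated data. An exact permutation of 3 against 3 arrays cannot go below p = 0.1, so none was run. The members and the 36 gene lists (818 of 969 listed genes measured) were chosen with earlier results of these data known.

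Genes were named by rule: called genes without overlap (up to 15 a direction), those also called without 881 mg/kg replicate 2 (up to 10), up to 3 called members a list, and 38 fixed genes, of which 37 were measured; entries named only by locus are not named. As the test called 1 gene, others were chosen after their values were seen.

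Sample titles carry replicate numbers whose meaning the labels do not give. Deviations from the group means correlated at 0.217, 0.253 and 0.260 between arrays of the same number and at -0.234 to -0.041 between others. Deviations within a group cancel by construction, so positive values for the same number force the others to be negative on balance. The negative values thus add no separate support for a pairing. From the positive ones the numbers were taken to pair the arrays. Values with the number as a block are given where they change a call. The alternatives, 16 with this one, change the arrays, weights, centring, filter, probe set rule, moderation or a covariate. Sequences were read from a RefSeq promoter table (GRCr8), cut to the 250 bases before the start, and searched on both strands.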

Additional observations from a re-analysis of the deposited data

Results flagged for a closer look

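The control probe sets for transcript ends are not part of the gene comparison and stood out on 881 mg/kg replicate 2. The Gapdh probe sets read 5.24 log2 units higher at the 3′ than at the 5′ end, where the 5 vehicle arrays and the other dosed arrays lay between 0.81 and 1.64. The beta-actin probe sets read 3.47, where the others lay between 1.67 and 2.72. The array received a weight of 0.224 when limma estimated array weights, the lowest of the 15 dosed arrays. Its part in the cell cycle values, which it alone among the 3 arrays at 881 mg/kg does not share, was not tested.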

How the results depend on the processing

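The count of genes called depends on which arrays estimate the spread. In place of 1 higher and 0 lower, the 6 arrays alone gave 0 and 0 (976 at an unadjusted p under 0.05), all 20 arrays 19 and 18, the 6 arrays alone without 881 mg/kg replicate 2 gave 27 and 8, array weights 68 and 43, the replicate block 13 and 8, arrays centred on their median 2 and 2, and the beta-actin 3′ minus 5′ difference as covariate 4 and 2. Leaving out each array in turn gave 0 to 41 higher and 0 to 13 lower; the most came without 881 mg/kg replicate 2, and 0 in both directions without 881 mg/kg replicate 3 or 440 mg/kg replicate 1. A filter on means under 6 (10512 genes), the mean of a gene's probe sets, and eBayes with trend and robust settings left both counts as they were. The cause of these shifts was not tested. Of 10216 probe sets with no or several symbols, 0 passed with limma (634 at an unadjusted p under 0.05), against 17 over all 20 arrays, 9 in the 6 arrays alone without 881 mg/kg replicate 2, 18 with array weights, 2 with the replicate block, 1 with the covariate and 0 to 9 on leaving out arrays.

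Osgin1 was called in 12 of 16 alternatives, with differences of 1.16 to 1.53 and adjusted p-values of 0.000324 to 0.183. Over 127 genes followed through the alternatives, 2021 values included 148 that crossed the threshold (52 genes) and 4 that lost it (Osgin1). Some genes, Mki67 and Ccna2 among them, had 15 alternatives, because the filter on means under 6 left them out. A further 21 values had the opposite sign (8 genes, none called in any fit). The reversed differences were those of Scd (0.73 in both fits without 881 mg/kg replicate 2, 0.44 with weights, 0.15 with the covariate, 0.37 without 440 mg/kg replicate 1, and -0.84 to 0.73 on leaving out arrays), Col3a1 (0.21 in both fits without 881 mg/kg replicate 2, 0.23 with weights, 0.065 with the covariate, 0.13 without 440 mg/kg replicate 1, and -0.20 to 0.21 on leaving out arrays), Plin2 (0.12 in both fits without 881 mg/kg replicate 2, 0.014 with averaged probe sets, and -0.53 to 0.12 on leaving out arrays), Slc6a6 (0.011 with weights), Lox (-0.036 with averaged probe sets, -0.18 without 881 mg/kg replicate 1, -0.043 without 440 mg/kg replicate 3, and -0.18 to 0.22 on leaving out arrays), Kif23 (0.17 with averaged probe sets), Ccnd1 (-0.0068 without 881 mg/kg replicate 1, -0.069 without 440 mg/kg replicate 2, and -0.069 to 0.51 on leaving out arrays) and Mybl2 (0.030 without 440 mg/kg replicate 3, and -0.18 to 0.030 on leaving out arrays). The replicate block changed no call but those given beside the results. With 3 arrays a group, differences near the median SE of 0.115 cannot be told from 0.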
